A study of Homo sapiens with 16 samples.

Results

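The comparison set U87-R, a temozolomide-resistant derivative of the human glioma line U87 MG, against the parental line (U87) in maps of N6-methyladenosine (m6A). It used the 3 U87-R and the 3 U87 m6A-eCLIP libraries, which are 6 of the 16 samples of the series, with the authors' reproducible site and peak lists of both lines; the libraries treated with the METTL3 inhibitor STM2457 were left out. Both lines carried a DMSO control label. U87-R was grown with 50 µM temozolomide (TMZ) in its medium and U87 without it, so the resistant state and the drug in the medium cannot be told apart. The labels do not say how U87-R was derived or whether it is a single clone. They do not name separate cultures for the replicates either, and p-values here cover no more than the scatter of these 6 libraries, which may be technical.

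m6A is laid on adenines of messenger RNA by a complex built around METTL3 and METTL14, removed by FTO and ALKBH5, and bound by YTH proteins that steer the decay and translation of the RNA. It is usually found near stop codons and in long internal exons, while a related mark, m6Am, sits on the first transcribed adenine beside the cap and is laid by PCIF1. The antibody used to map m6A also recognises m6Am. TMZ methylates guanine in DNA, and MGMT takes that methyl group off again.

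For each library the authors list the bases they called, each with a score. A gene's value is the sum of the scores of the bases on its strand, and a gene in which nothing was called is "listed at 0", which is not a measured 0. The input libraries were not analysed here, so methylation per molecule, the amount of an RNA and the share of cells that make it cannot be told apart in any value below. The libraries held 149477 to 192697 called bases, and depth is unknown because the lists hold no reads. All 8 markers of the glioma line (VIM, CD44, TNC and others) had called bases, with summed scores of 8852 to 9727 in U87 and 9713 to 10843 in U87-R. The astrocyte markers GFAP, AQP4, SLC1A2 and ALDH1L1 were listed at 0 in all 6 libraries, as were SOX10, EPCAM, PTPRC, CDH5 and CD3E. The other astrocyte marker, SLC1A3, had called bases, with sums of 161 to 297 in U87 and 135 to 312 in U87-R. Of 5 markers each, 2 of neurons and 1 each of oligodendrocytes, epithelium and T cells had called bases. Their highest sums, in that order, were 6.52, 0.511, 3.82 and 4.58 in U87 and 13.8, 0, 0.712 and 3.24 in U87-R. Of 5 macrophage markers 2 had called bases, with sums of 273 to 457 in U87 and 199 to 429 in U87-R, and of 5 endothelial markers 3, with 72.5 to 212 and 59.1 to 89.7; their part in the results was not tested.

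The sequences behind the start-site results are shown first. Of the called genes searched, 12 had a base within 50 nt of an annotated start, inside a RefSeq window, with a score of at least 10 in every library of the higher line; the 7 shown were chosen after their values were seen. They are from RefSeq promoter windows (GRCh38.p14), 21 bases each, 5′ to 3′ on the gene's strand; capitals mark bases called in all 3 libraries of the line with the higher gene sum.
COL5A3: ggtctcgggCAgtttcccgcg
COL13A1: cggattgctCATccgatccgt
COL15A1: gggagccgGGATtctgcccgc
TNFAIP2: gggccaggACAgtggcggcca
IGFBP2: gcgagggAggAggAagaagcg
ESM1: gcagaggctCAgctaccagtt
SERPINB2: tctgaactgTAacaactctca

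The 11th base of each is the strongest start-near one. It is an adenine in these 7 and in 10 of all 12; in AJUBA it is a G and in LOC124900163 a T. It is an annotated start of COL5A3, COL13A1, COL15A1, TNFAIP2 and ESM1. In the line with the higher sum it was the strongest base of the whole gene in COL5A3, COL15A1 and IGFBP2, while COL13A1, TNFAIP2, ESM1 and SERPINB2 had stronger ones farther in. The windows lie at chr19:10010494-10010514 (minus strand) for COL5A3, chr10:69801896-69801916 for COL13A1, chr9:98943897-98943917 for COL15A1, chr14:103123451-103123471 for TNFAIP2, chr2:216633411-216633431 for IGFBP2, chr5:54985583-54985603 (minus strand) for ESM1 and chr18:63887697-63887717 for SERPINB2.

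COL13A1, a transmembrane collagen, had scores of 39.3, 37.9 and 63.4 at this base in U87 and 94.7, 98.9 and 87.3 in U87-R. In COL15A1, a basement-membrane collagen, the scores were 35.6, 24.6 and 37.9 in U87 and 72.7, 68.7 and 71.5 in U87-R. COL5A3, a fibrillar collagen chain, had no call at its first base in U87 and scores of 44.0, 20.1 and 63.7 in U87-R. The lines did not overlap at any of these 3 bases. ESM1, which encodes the secreted proteoglycan endocan, went the other way, with 21.4, 35.0 and 19.6 in U87 and no call in U87-R. At SERPINB2, a protease inhibitor, the scores were 29.2, 36.6 and 27.3 in U87 and 21.6, 15.9 and 23.7 in U87-R. These bases were taken from genes already called different, so their scores are a description.

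**Figure D1:**
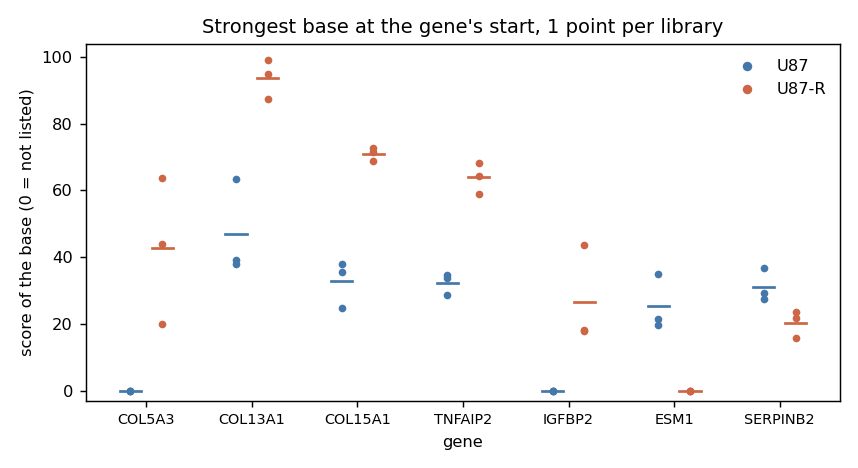
Score (y axis, no unit; 0 means not listed) of the strongest base near the annotated start of 7 called genes, 1 point per library, with the mean as a bar. The 3 collagen genes, TNFAIP2 and IGFBP2 are higher in every U87-R library than in any U87 library, and ESM1 and SERPINB2 are lower.

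The letter and motif at called bases were then compared between the lines wherever a base with a score of at least 10 lay in a RefSeq window (35116 windows for 27305 genes). Within 50 nt of a start, adenine made up 59.6% ± 0.893 of such bases in the parental and 60.2% ± 0.949 in the resistant libraries (SD, n = 3; p = 0.6, exact two-sided permutation test). As background, 44.4% of all windows have adenine as the start base. The 5-base motif searched is the usual m6A context on the base's own strand: the called A followed by C, then A, C or T, and preceded by A or G, with A, G or T before that. It stood at 1.38% ± 0.0815 of start-near bases in U87 and 1.05% ± 0.0375 in U87-R, and at 32.1% ± 0.890 and 28.7% ± 0.284 of those farther into a gene (SD, n = 3 each). In both places every U87-R library was below every U87 library, and the exact two-sided permutation p was 0.1, the smallest this design allows. The second value rests on only 544 to 775 bases per library. Those bases lie more than 50 nt from a start but still inside a promoter window. The value therefore does not describe gene bodies or the ends of genes, for which no sequence was read. Of all windows, 49.6% hold the motif somewhere in their first 50 transcribed bases, which is a share of windows and not of called bases.

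Across whole genes, the lines differed in a small set with large changes. The limma fit on log2(sum + 1) covered 10152 genes. It called 47 genes higher in U87-R (0.463%) and 18 genes lower (0.177%), at a threshold of 0.05 on the Benjamini-Hochberg adjusted p. Counted over all genes, 1129 had an unadjusted p under 0.05. The 47 include KRT86 and OPRK1, whose bases lie on the strand opposite to the gene, so these calls do not belong to them. With the replicate number as a block the counts were 115 and 51. With each library centred on its median gene they were 68 and 47, since the median change of all genes was 0.12 (log2, U87-R minus U87), and changes below should be read against it. Leaving out a library moved the counts: 18 genes were higher without U87 replicate 1, and 7 and 4 without the first and the third U87-R library. For lower genes the count was 2, 9 and 3 without U87 replicates 1, 2 and 3 in turn, and 6, 36 and 3 when the U87-R replicates were left out in turn. In 1146 genes (11.3%) every U87-R library stood above every U87 library, and in 536 (5.28%) below.

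**Figure D2:**
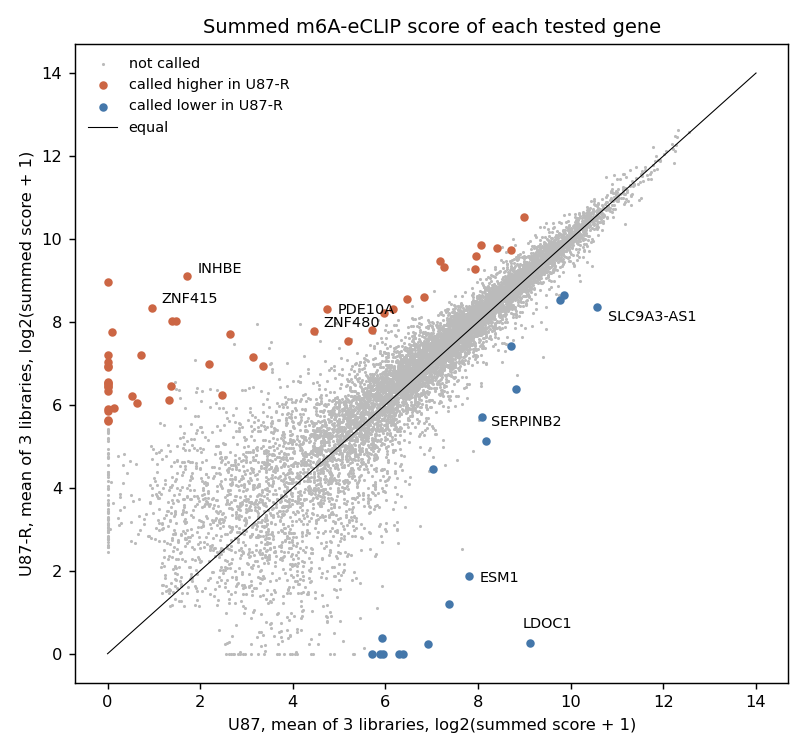
Mean log2(summed score + 1) of each tested gene in U87 (x axis) and U87-R (y axis), 3 libraries each; coloured points are the 47 genes called higher and the 18 called lower in U87-R. Many called genes lie on an axis, where no base was called in the other line, and others such as CHD8 and SLC9A3-AS1 have high sums in both.

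Of the 47 higher genes, 15 were listed at 0 in every U87 library, and of the 18 lower genes 5 were listed at 0 in every U87-R library. Over all tested genes, 74 were listed at 0 in all U87 libraries and 30 in all U87-R libraries; 33 and 12 of these had a sum of at least 10 in every library of the other line. By the number of called bases instead of their scores, 29 genes were called higher (0.286%) and 7 lower (0.069%), 21 and 5 of them also called by the sum. With the replicate number as a block these counts were 0 and 0. They were also 0 and 0 without U87 replicate 1 and without the third U87-R library, 3 and 0 without U87 replicate 2, 2 and 0 without U87 replicate 3, and 0 and 1 without the first U87-R library.

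MGMT (chromosome 10, 129467241 to 129770983) was listed at 0 in all U87 libraries and had sums of 158, 101 and 107 in U87-R (limma adjusted p = 0.00623). Its strongest base, at position 129766993, had scores of 48.3, 34.4 and 44.1, and lay 3990 nt before the annotated end of the gene; the next, at 129766856, had 34.8, 34.6 and 35.4. None of its signal lay within 50 nt of an annotated start. DOCK8, a guanine nucleotide exchange factor, joined both kinds of position: its start base at 211257 on chromosome 9 had scores of 32.6, 35.6 and 50.6, and a base 866 nt from its end had 65.3, 32.9 and 25.7, with no call in U87 at either.

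CMKLR1, the receptor of the chemoattractant chemerin, was listed at 0 in U87 and had sums of 116, 37.7 and 148 in U87-R (adjusted p = 0.0162). IGFBP2, a secreted binding protein of insulin-like growth factors, was listed at 0 in U87 and had 147, 66.9 and 76.6 in U87-R (adjusted p = 0.0124), and 99.9% of that signal lay within 50 nt of its start. MMADHC, which routes vitamin B12 inside the cell, was listed at 0 in U87 and had 62.1, 130 and 99.5 in U87-R (adjusted p = 0.0124). That sum adds neighbouring bases with equal scores. The bases at 149587719 and 149587720, 56 and 55 nt from its start, both had 13.4, 35.8 and 22.2 in U87-R. The rule for naming genes required a base in each library of the higher line, so a value in every U87-R library was set by selection. On the authors' reproducible list of U87-R, CMKLR1 and MMADHC had 0 sites and IGFBP2 had 2.

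CDH11, the mesenchymal cadherin, had sums of 7.21, 13.8 and 1.01 in U87 and 241, 253 and 152 in U87-R, a rise of 5.08 ± 0.742 (log2, SE; adjusted p = 0.0157). PDE10A, a cyclic nucleotide phosphodiesterase, had 20.8, 29.7 and 27.7 in U87 and 406, 257 and 311 in U87-R, a rise of 3.58 ± 0.351 (adjusted p = 0.00248). PIK3R6, a regulatory subunit of phosphoinositide 3-kinase, rose by 6.54 ± 0.704 (adjusted p = 0.00419), and 75.7% of its U87-R signal lay within 500 nt of its annotated end. Its U87-R sums were 245, 258 and 270, beside 0.752, 0.725 and 6.03 in U87, so they lay close together.

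INHBE, a subunit of activins made under amino acid stress, had sums of 0.405, 0.254 and 18.8 in U87 and 1129, 167 and 869 in U87-R (adjusted p = 0.0157). U87-R replicate 2 was the low library of its line. The same library was the lowest for COL5A3, whose sums were 10.2, 0.725 and 4.00 in U87 and 182, 48.1 and 230 in U87-R, a rise of 4.80 ± 0.883 (adjusted p = 0.0464).

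Of the other collagens called, COL13A1 had sums of 310, 334 and 376 in U87 and 876, 909 and 836 in U87-R, a rise of 1.36 ± 0.163 (adjusted p = 0.00623). COL15A1 had 268, 180 and 306 in U87 and 818, 648 and 859 in U87-R, a rise of 1.64 ± 0.232 (adjusted p = 0.0134). No collagen on the list of mesenchymal and matrix genes (COL1A1, COL1A2, COL4A1, COL4A2, COL5A1, COL6A1 and COL6A2) was called in either direction. Collagen genes were not tested as a group. G0S2, an inhibitor of the lipase ATGL, rose by 1.79 ± 0.248 (adjusted p = 0.0124), from 192, 386 and 251 to 964, 823 and 982. DEPP1, a target of FOXO factors, rose by 1.35 ± 0.222 (adjusted p = 0.0261). KLF4, a transcription factor of stem cells, rose by 2.25 ± 0.417 (adjusted p = 0.0476).

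Zinc finger genes made up 12 of the 47 higher genes. They encode DNA-binding proteins, many of them KRAB-domain repressors clustered on chromosome 19. Of 119 tested chromosome 19 genes with a ZNF symbol 9 rose and none fell, with a median change of 0.58 against 0.12 for all genes, and in 46 (38.7%, beside 11.3% of all genes) every U87-R library stood above every U87 library. Of 181 elsewhere 3 rose and 1, ZNF518B, fell. Their median was 0.13 and 21 (11.6%) stood above. Beside these counts, 0.463% of all tested genes rose and 0.177% fell. The zinc finger genes share related sequence, and how reads that map to several places were handled is not stated.

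ZNF486 was listed at 0 in U87 and had sums of 126, 59.5 and 96.2 in U87-R (adjusted p = 0.0124). ZNF529 was listed at 0 in U87 and had 106, 70.3 and 85.5 in U87-R (adjusted p = 0.0124). ZNF300, on chromosome 5, had 0, 3.52 and 0 in U87 and 195, 144 and 113 in U87-R (adjusted p = 0.0103). In ZNF415 97.1% and in ZNF875 89.5% of the U87-R signal lay within 2000 nt of the annotated end, while in ZNF486 and ZNF529 none did. ZNF480 had a base 9 nt from its start with scores of 9.85, 8.88 and 7.03 in U87 and 64.9, 51.1 and 53.2 in U87-R.

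Among the lower genes, LDOC1 (adjusted p = 0.000368) kept its call in all 18 alternative settings it was refitted under, with changes of -11.4 to -4.25 (log2). Its strongest base, on chromosome X at 141176249, had scores of 70.4, 83.8 and 84.9 in U87 and 0.747, 0 and 0 in U87-R. ESM1 had sums of 192, 260 and 215 in U87 and 6.24, 3.35 and 0.557 in U87-R, and fell by 5.92 ± 0.688 (log2, SE; adjusted p = 0.00589). SERPINB2 had 241, 302 and 275 in U87 and 60.8, 39.1 and 55.9 in U87-R, and fell by 2.39 ± 0.310 (adjusted p = 0.00931). The drop at SERPINB2 was larger away from its start: its base 863 nt from the gene's end had 50.5, 52.4 and 49.0 in U87 and 11.2, 5.89 and 0 in U87-R.

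ADAMTS18, a secreted metalloprotease, had sums of 219, 401 and 274 in U87 and 30.2, 62.9 and 20.7 in U87-R, and fell by 3.05 ± 0.448 (adjusted p = 0.0157). Long noncoding RNAs made up 6 of the 18 lower genes and 3 of the 47 higher ones, beside 6.21% (630) of all tested genes. LINC01786 fell by 2.58 ± 0.464 (adjusted p = 0.0413) and LINC01119 by 1.25 ± 0.187 (adjusted p = 0.0162), the latter from sums of 839, 812 and 966 to 299, 432 and 380. ZNF503-AS2, antisense to a zinc finger gene, fell by 1.29 ± 0.228 (adjusted p = 0.0404). Over libraries, 4.31% ± 0.269 of assigned bases lay in long noncoding genes in the parental and 3.88% ± 0.135 in the resistant line, without overlap (SD, n = 3; p = 0.1 in an exact two-sided permutation test, which cannot go lower).

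**Figure D3:**
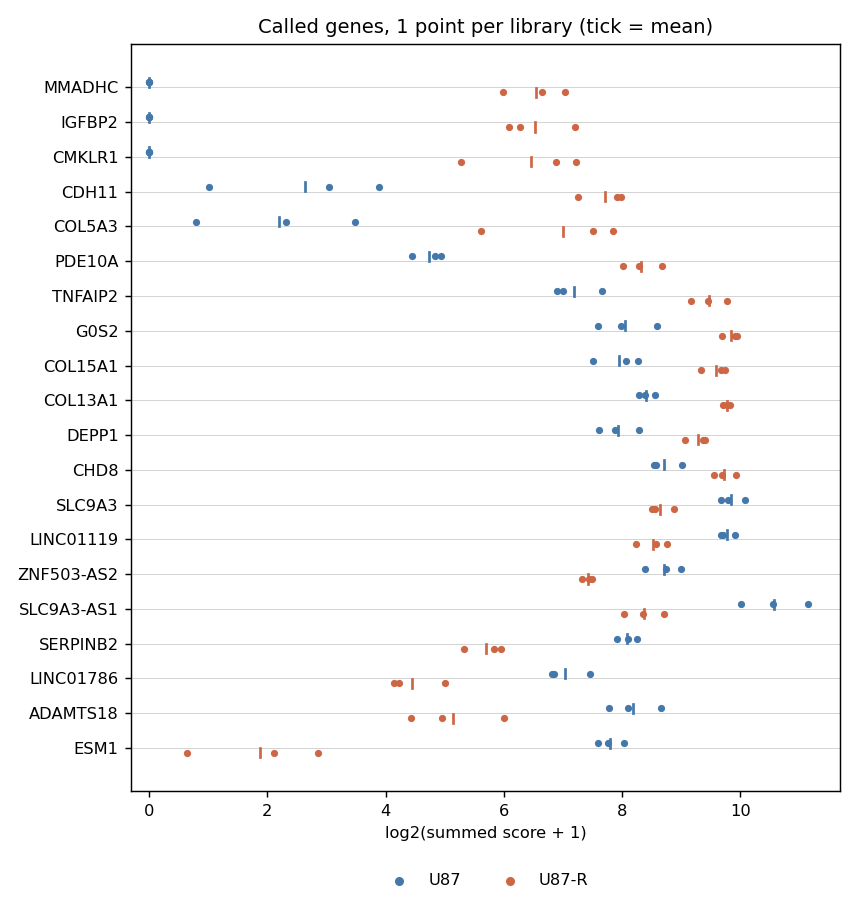
log2(summed score + 1) of 20 called genes (rows), 1 point per library and a tick at the mean of each line. The 3 U87 and the 3 U87-R points do not overlap in any row; the spread within a line is widest in rows with low sums, such as COL5A3 and ESM1.

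The gene lists otherwise held few calls. Among 24 tested m6A writers, erasers and readers none was called in either direction, and the median change was 0.09 against 0.12 over all genes. METTL14 had mean sums of 239 ± 75.1 and 193 ± 43.1, PCIF1 200 ± 33.8 and 211 ± 10.2, and FTO 148 ± 12.3 and 164 ± 56.2 in U87 and U87-R (SD, n = 3 each). ALKBH5 had 394 ± 46.7 and 320 ± 47.4 (adjusted p = 0.626) and METTL3 113 ± 14.9 and 187 ± 66.8 (adjusted p = 0.516). EGFR, MALAT1 and MAT2A were not called either, with adjusted p of 0.907, 0.728 and 0.986, and SOX2 did not reach the filter on low sums.

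Of 31 genes of alkylation damage and DNA repair 1, MGMT, rose (0.463% of all genes did) and none fell; the median change was 0.42, and 8 of 31 stood above in every U87-R library (11.3% of all tested genes did), among them MSH6 with sums of 940, 1119 and 911 in U87 and 1227, 1150 and 1176 in U87-R (adjusted p = 0.533). MSH6 is the mismatch sensor that reads TMZ lesions, and is named here after its values were seen. Of 26 genes of the integrated stress and unfolded protein responses 1, INHBE, rose, with a median of 0.35. CHAC1, a glutathione-degrading enzyme of that response, had 343, 501 and 457 in U87 and 1539, 629 and 1101 in U87-R (adjusted p = 0.121). Of 14 interferon and innate sensing genes none was called, at a median of 0.46, and of 28 receptor kinase, PI3K and MAPK genes none was called, at a median of -0.12. Of 31 mesenchymal and matrix genes 1, CDH11, rose and 1, ESM1, fell (0.463% and 0.177% of all tested genes did).

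KLF4 was the 1 gene that rose among 17 factors of glioma stem and progenitor cells, and EGLN3, a prolyl hydroxylase of the oxygen sensor, the 1 among 20 of hypoxia and glycolysis. Of 12 Gag-like and cancer-testis genes 2 fell, LDOC1 and ACTL8. Of 9 polyamine enzymes 1 fell, SAT1, and of 8 DOCK exchange factors 1 rose, DOCK8. Lists and members were chosen with earlier results of these data known, so the counts cannot show enrichment. Beside these counts, 0.463% of all tested genes rose and 0.177% fell. No member was called in the lists of apoptosis and survival (19 tested), chromatin regulators (33), efflux and oxidative detoxification (15), immediate early and AP-1 genes (24), long noncoding RNAs (14) and cell cycle and p53 response (21).

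**Figure D4:**
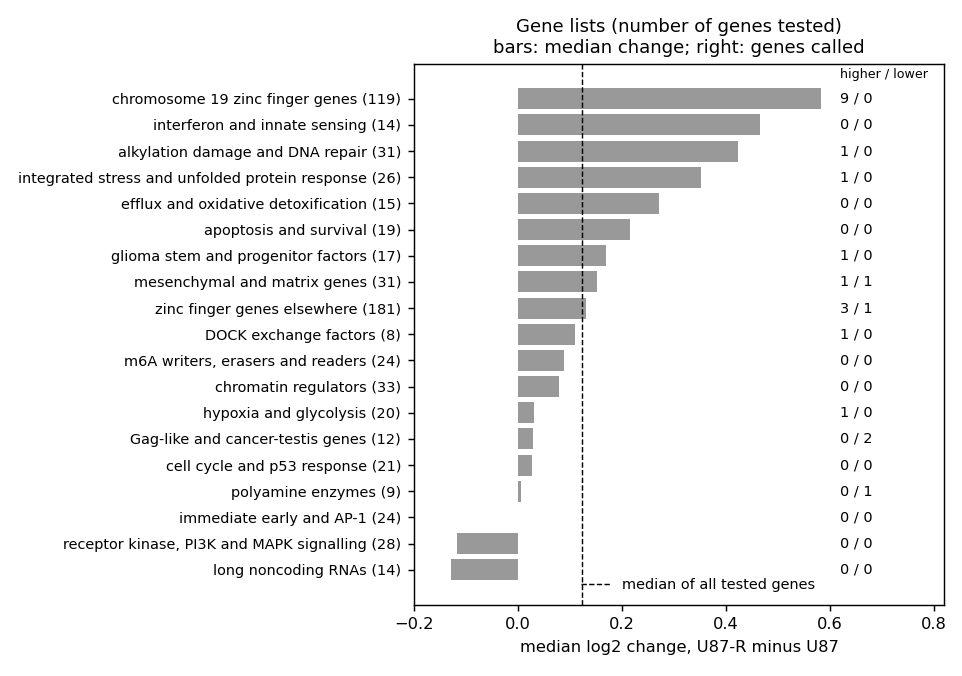
Median log2 change (bars, x axis, U87-R minus U87) of the tested members of 19 gene lists, with the number tested in brackets, the numbers called higher and lower at the right, and the median of all tested genes as a dashed line. The chromosome 19 zinc finger genes have the highest median, 0.58, and most lists have 0 or 1 call per direction.

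The position of a gene on the chromosomes went with its change. Chromosome 14 genes were higher in U87-R as a group: the median change of 333 tested genes was 0.51 against 0.12 for all genes, and 144 of them (43.2%, beside 11.3% of all genes) stood above in every U87-R library. Of the 333 genes 6 were called higher, among them CHD8, AJUBA, TNFAIP2, MDGA2 and EGLN3, beside 47 of all 10152 tested genes (0.463%). Genes in the first 50 Mb of chromosomes 4 and 5 were lower: 36 of 117 (30.8%) and 33 of 91 (36.3%) stood below in every U87-R library, beside 5.28% of all genes. These chromosomes were singled out after their values were seen, from 23 chromosomes.

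For the values per library, each gene's log2(sum + 1) was taken as a deviation from its mean over the 6 libraries, and each library was set to a median of 0 over all tested genes. Over 194 chromosome 14 genes with a mean sum of at least 100, the median deviation was -0.17, -0.19 and -0.23 in U87 and 0.16, 0.22 and 0.16 in U87-R. For the first 50 Mb of chromosome 4 (74 genes) it was 0.30, 0.20 and 0.26 in U87 and -0.26, -0.36 and -0.26 in U87-R. For the first 50 Mb of chromosome 5 (48 genes) it was 0.33, 0.35 and 0.31 in U87 and -0.27, -0.34 and -0.30 in U87-R. The lines did not overlap in any of the 3, and the spread within a line was a small part of the gap. The exact two-sided permutation test gave p = 0.1 for each of the 3, its lower limit here. Over the 23 whole chromosomes 5 reached that limit (4, 9, 10, 14 and 19; adjusted p = 0.46), with differences of 0.37 for chromosome 14, -0.21 for chromosome 4 and -0.10 to -0.04 for the other three.

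**Figure D5:**
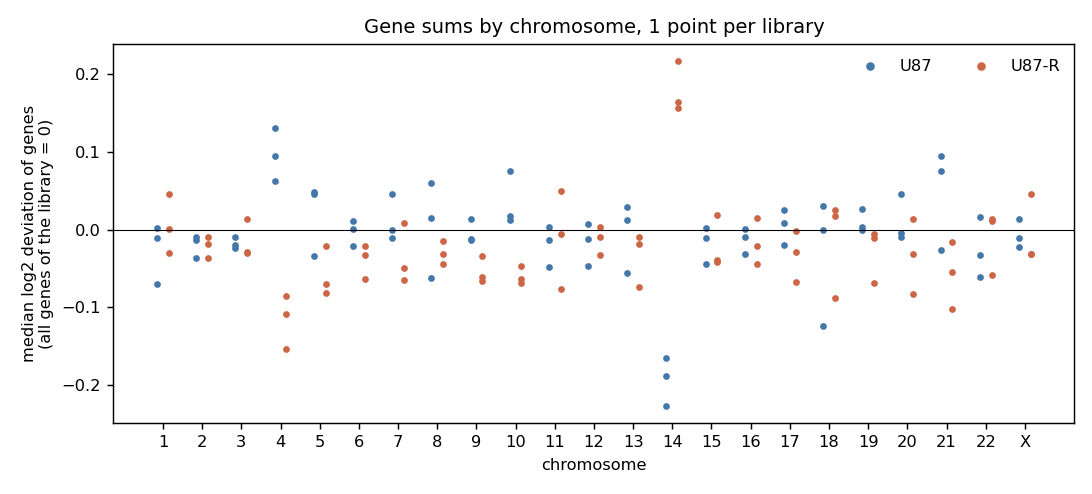
Median log2 deviation of genes with a mean sum of at least 100, by chromosome (x axis), 1 point per library, with the median of all tested genes of the library at 0. The 3 U87-R points stand highest and the 3 U87 points lowest at chromosome 14, the reverse order is seen at chromosome 4, and on the others the lines overlap or stand closer together.

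The shift was uneven along each of these chromosomes. On chromosome 14 the median change was 0.89 over 109 genes below 55 Mb and 0.39 over 224 genes beyond. On chromosome 4 it was -0.48 below 50 Mb and 0.18 beyond (260 genes), and on chromosome 5 -0.58 below 50 Mb and 0.14 beyond (393 genes). In a scan of 117 windows of 25 Mb with at least 15 such genes, the 4 lowest were those of 0 to 50 Mb on chromosomes 4 and 5 and the 5 highest were those of chromosome 14.

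The same order was seen at the 60059 bases called in all 6 libraries, a set that no gained or lost call enters. Their median change was 0.08 over all chromosomes, 0.76 on chromosome 14 below 55 Mb (447 bases), 0.32 beyond it (1680 bases), -0.34 on chromosome 4 below 50 Mb (637 bases) and -0.38 on chromosome 5 below 50 Mb (438 bases). The order was also seen in the authors' reproducible sites. Regions and their cut points were chosen from these same libraries, so neither result is a separate test of the shift. Of the U87-R sites on chromosome 14 below 55 Mb, 39.0% (115 of 295) were not on the U87 list, beside 20.4% of all U87-R sites. Of the U87 sites below 50 Mb, 30.7% on chromosome 4 (130 of 424) and 33.6% on chromosome 5 (120 of 357) were not on the U87-R list, beside 16.1% of all U87 sites.

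Some genes with high sums in both lines showed the shift one by one, while others moved little. MMP14 and ARF6 on chromosome 14 changed by 0.22 and 0.29, and TRIO on chromosome 5 by -0.23 (log2). CHD8, a chromatin remodeller on chromosome 14 (21385199 to 21456123), had sums of 371, 514 and 380 in U87 and 971, 828 and 751 in U87-R, and rose by 1.02 ± 0.190 (log2, SE; adjusted p = 0.0483). AJUBA, a LIM protein of cell junctions, rose by 1.75 ± 0.278 (adjusted p = 0.0228), and TNFAIP2, a TNF-induced gene, by 2.29 ± 0.261 (adjusted p = 0.00556). Both had lower sums in U87, with means of 118 and 149. METTL3 and HNRNPC, an RNA-binding protein, also lie on chromosome 14, at changes of 0.66 and 0.67 that did not pass. Neighbours with high sums and no overlap, such as NIN (adjusted p = 0.0579) and ARHGAP5 (adjusted p = 0.0700), had changes of 0.83 each; they are named after their values were seen.

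SLC9A3, a sodium-proton exchanger near the start of chromosome 5 (470456 to 524449), had sums of 889, 814 and 1077 in U87 and 468, 375 and 363 in U87-R, and fell by 1.20 ± 0.181 (log2, SE; adjusted p = 0.0167). SLC9A3-AS1, read from the other strand, had 1505, 1031 and 2250 in U87 and 420, 262 and 326 in U87-R, and fell by 2.20 ± 0.278 (adjusted p = 0.00769). GDNF, a neurotrophic factor further along that arm, had 1074, 1588 and 1313 in U87 and 684, 851 and 589 in U87-R, and did not pass (adjusted p = 0.0790). LOC124900163, annotated as protein-coding on chromosome 4 (748087 to 781848), fell by 2.44 ± 0.413 (adjusted p = 0.0312).

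At single bases few differences passed. Of 147684 bases called in at least 3 libraries, 4 were higher in U87-R (0.00271%) and 0 lower (0%), and 11003 had an unadjusted p under 0.05 in limma; with the replicate number as a block 1 base was called higher, and without any 1 library 0 were. In PLOD1, a collagen lysyl hydroxylase, the base at 11975138 on chromosome 1 lay 399 nt from the gene's end and had scores of 52.95, 53.27 and 57.24 in U87 and 129, 134 and 134 in U87-R (adjusted p = 0.0357). In TNFAIP2 the base at 103135527 had 29.8, 32.1 and 27.9 in U87 and 98.5, 106 and 99.8 in U87-R (adjusted p = 0.0499). In COL8A1, a short-chain collagen, the base at 99794522 on chromosome 3 had 61.5, 58.1 and 59.5 in U87 and 135, 176 and 129 in U87-R (adjusted p = 0.0499). The fourth lay on the strand opposite to its gene, OPRK1, and is not given to it.

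Of the 60059 bases called in all 6 libraries, 0 were higher (0%) and 0 lower (0%) in limma, with 4420 at an unadjusted p under 0.05 and a smallest adjusted p of 0.0964. The middle 95% of their changes ran from -1.67 to 1.86 (log2). Within genes, 52222 of these bases in 5773 genes were set against the other common bases of their gene, and 0 passed (0%); 2818 had an unadjusted p under 0.05. So among bases called in all 6 libraries, no shift of signal from one base of a gene to another was detectable with 3 libraries a line. Bases missing from any library were not in this fit, so it cannot show a shift to or from them.

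By position, 8.59% ± 0.649 of assigned bases lay within 50 nt of an annotated start in the parental and 9.79% ± 0.918 in the resistant libraries (SD, n = 3; p = 0.2, exact two-sided permutation test), and 8.63% ± 0.156 and 8.55% ± 0.226 within 500 nt of the annotated end (p = 0.6 by the same exact test). The start-near ranges overlapped at U87 replicate 2. Of the authors' 33396 reproducible U87 sites 83.9% were also on the U87-R list, beside 79.6% of the 35207 U87-R sites in the other direction, and 92.8% of U87 peaks overlapped a U87-R peak. ZNF300 had 6 reproducible sites in U87-R and 0 in U87, and ESM1 had 5 in U87 and 0 in U87-R.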

How the data were processed

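Bases came from the authors' deposited list per library, m6A-eCLIP of polyA RNA made by a commercial provider per the labels' protocols. The tools named in the submitters' processing notes are cutadapt, STAR and UMI-tools, with build hg38; no source used here gives versions, callers or a normalization. The deposited value per base is a score, the smallest of 4 listed beside it, not a read count; the authors' reproducible lists add the fraction of libraries that passed. No total was scaled.

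Genes came from RefSeq tables (GRCh38.p14). Strands were annotated for 27303 gene models and read from bases for 1814 (at least 5 bases, 80% on 1 strand); where both were known, 97.5% matched. Of 402766 called bases 88.4% went to 1 gene. Sums on log2(sum + 1), for genes with at least 10 in at least 2 libraries, were tested with limma 3.58.1 (R 4.3.3), trend on, over the 6 libraries, with Benjamini-Hochberg adjustment, after a test on simulated data; numbers per library had exact permutation tests (Python 3.11.15).

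Deviations of same-numbered libraries from their line's mean correlated at 0.11, 0.34 and 0.13, all above 0.1. By that rule the numbers were taken to pair libraries, but only in the alternative fits with the replicate number as a block. The main fits and the adjusted p-values given for genes and bases treat the libraries as unpaired. The pairing rests on these data, not on the labels, and only replicate 2 stands out: U87 3 with U87-R 1 (0.15) and U87 1 with U87-R 3 (0.12) were as high as the same-number values. Both replicate 2 libraries stood apart on the second principal component (28% of variance; -46.1 and -83.4, others 24.1 to 40.8).

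Named genes were, in each direction, the 15 called genes that changed most, had a base in every library of the higher line and did not overlap, up to 3 called members per list and direction, and 10 genes in any case; others are described beside them and were chosen after their values were seen. Members and lists were chosen with earlier results of these data known. KRT86 and OPRK1 are not named as changed because their bases lie on the opposite strand; some items called higher are not reported here. The input libraries were not used, and the 2 STM2457 libraries entered only an alternative fit over all 8 libraries. Called genes on chromosome 8 were left out of the search for start-near windows.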

Additional observations from a re-analysis of the deposited data

How the results depend on the processing

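Counts of called genes moved with the settings. Genes higher and lower in U87-R, 47 and 18, were 24 and 8 with a pseudocount of 0.1, 74 and 28 with 10, 22 and 8 with a sum of at least 50, 81 and 47 scaled to library totals, 19 and 8 with scores of at least 10, 94 and 39 with all 8 libraries in the fit, 68 and 47 median centred, 60 and 37 without the trend, and 29 and 7 by number of called bases. With the replicate block they were 115 and 51, and no named gene lost its call. Across all alternative settings many named genes did lose it in some. KLF4 and LINC01786 lost it in 11 of 18, and ADAMTS18, EGLN3 and SAT1 in 8 of 18. CMKLR1 lost it in 6 of 18, INHBE in 6 of 17 and MGMT in 3 of 18. LDOC1 and ZNF415 kept it in all 18. With annotated strands only, an alternative chosen after seeing the data, they were 34 and 17. Without 1 library they ran from 4 to 67 and from 2 to 36; such fits have fewer samples. By number of called bases, 29 and 7 became 0 and 0 with the block, 52 and 32 median centred, and 0 to 22 and 0 to 8 without 1 library. Of single bases, 4 and 0 became 16 and 5 when called in at least 2 libraries, 1 and 0 in at least 4, 17 and 9 with a pseudocount of 10, 1 and 0 with the block, and 0 and 0 to 1 without 1 library. Common bases and within-gene use stayed at 0 in every setting that was run.

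The excess of called bases in U87-R (3042) ran from -7835 to 13775 when 1 library was left out, and was below 0 without the first library of either line (-5841 for U87). That of the median common score (1.92) ran from -0.36 (without U87-R replicate 1) to 3.95. The difference near gene ends (-0.0745 points) ran from -0.174 to 0.0484 and turned above 0 without U87 replicate 3 (0.00581) and when the second U87-R library was left out. Shared U87-R sites, 79.6%, were 77.8% among sites passed in all 3 libraries; shared peaks, 91.9%, were 89.4% at an overlap of at least 50% and 90.8% among peaks passed in all 3 libraries.

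The following were chosen after seeing the data. The relative change of chromosome 14, 0.37, was 0.43 over every tested gene, 0.30 at a mean sum of at least 300 and 0.30 at common bases. Below 50 Mb, chromosome 4 (-0.55) gave -0.60 over every tested gene and -0.42 at common bases, and chromosome 5 (-0.64) gave -0.71, -0.68 at a mean sum of at least 300, -0.59 without called genes and -0.47 at common bases. Leaving out a library kept all 3 directions. The cause of none of these differences was tested. Precision is limited by 3 libraries a line and by scores without read depth.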
